A study of Mus musculus with 9 samples.

Results

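The genes described here are the writers and erasers of DNA methylation in cultured mouse spermatogonial stem cells (SSCs). They were chosen by symbol, and all 10 of the listed genes were found among the 53801 genes in the table: the methyltransferases *Dnmt1*, *Dnmt3a* and *Dnmt3b*, the hemimethylation readers *Uhrf1* and *Uhrf2*, the dioxygenases *Tet1*, *Tet2* and *Tet3*, and the imprint-protecting genes *Zfp57* and *Trim28*. All 10 passed the filter on low counts. The study asked whether PRMT5, an arginine methyltransferase, acts in SSCs through its catalytic activity. The SSCs came from Prmt5 flox/flox; Rosa26-CreERT2 mice and received 4-hydroxytamoxifen (4OHT) at 1 µM in culture, which switches on a Cre recombinase made in every cell type from the Rosa26 locus and deletes *Prmt5*. mRNA was sequenced from 3 libraries with 4OHT alone, 3 of 4OHT-treated cells overexpressing PRMT5 (E444Q), a catalytically dead mutant, and 3 of 4OHT-treated cells overexpressing PRMT5 (WT). The sample labels only abbreviate these constructs, and the labels MU and OE were read as PRMT5 (E444Q) and PRMT5 (WT). For its western blots, the paper states that lentivirus carried the constructs. No group here is labelled as a vector without PRMT5, so delivery and PRMT5 cannot be told apart in differences from 4OHT alone. None of these libraries is from the ethanol-treated control, so levels without the deletion of *Prmt5* are not known here. Other SSC cultures of the study were grown on feeder layers, and whether feeder RNA is in these libraries is not given in the sources used here. The animals' age, the number of clones or cultures and the promoter of the constructs are not given in the sources used here. Nothing states that libraries of a group came from separate cultures, so p-values measure only the spread between these libraries, which may be technical.

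Cytosines in CpG dinucleotides are methylated de novo by DNMT3A and DNMT3B and copied to the new strand after each DNA replication by DNMT1, which UHRF1 brings to hemimethylated sites. TET enzymes oxidise 5-methylcytosine, which is then lost by dilution or by excision repair. Male germ cells erase their methylation before birth and set it anew in prospermatogonia, so that spermatogonia already carry the paternal pattern and must keep it through their divisions. At imprinted loci, ZFP57 recognises the methylated allele and brings TRIM28, which recruits further silencing factors. RNA was measured here, and DNA methylation was not.

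Among the de novo and TET enzymes, *Dnmt3b* and *Tet1* were higher and *Dnmt3a* and *Tet2* lower with either construct than with 4OHT alone. Their promoters are shown because they are annotated sites at which these 4 genes start. CpG, the letters that methylation acts on, also differs widely in number among them. The sequences are RefSeq promoters of GRCm38.p6, from 250 bases before to 50 bases after the start, 5′ to 3′ on the strand of the gene, with every CpG in capitals. *Dnmt3a* has a first start at chr12:3806730-3807029, forward strand, and an internal start at chr12:3891494-3891793, forward strand, which gives the shorter isoform. A further *Dnmt3a* window, chr12:3806910-3807209, overlaps the first, holds 47 CpGs and is not shown. *Dnmt3b* starts within chr2:153649199-153649498, forward strand, *Tet1* within chr10:62887275-62887574, reverse strand, and *Tet2* within chr3:133544341-133544640, reverse strand.
Dnmt3a first start: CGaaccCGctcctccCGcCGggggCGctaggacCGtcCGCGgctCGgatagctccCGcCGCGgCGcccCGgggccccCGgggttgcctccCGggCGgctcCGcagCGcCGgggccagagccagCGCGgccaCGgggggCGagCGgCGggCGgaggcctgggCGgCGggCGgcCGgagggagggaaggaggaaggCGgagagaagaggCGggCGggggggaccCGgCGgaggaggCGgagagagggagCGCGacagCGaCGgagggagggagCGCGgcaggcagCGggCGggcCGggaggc
Dnmt3a internal start: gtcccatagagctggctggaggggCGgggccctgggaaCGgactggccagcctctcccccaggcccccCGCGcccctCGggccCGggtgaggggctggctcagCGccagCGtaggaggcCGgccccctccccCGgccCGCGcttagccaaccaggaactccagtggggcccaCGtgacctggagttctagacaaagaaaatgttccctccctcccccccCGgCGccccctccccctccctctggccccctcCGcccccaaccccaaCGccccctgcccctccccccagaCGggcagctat
Dnmt3b: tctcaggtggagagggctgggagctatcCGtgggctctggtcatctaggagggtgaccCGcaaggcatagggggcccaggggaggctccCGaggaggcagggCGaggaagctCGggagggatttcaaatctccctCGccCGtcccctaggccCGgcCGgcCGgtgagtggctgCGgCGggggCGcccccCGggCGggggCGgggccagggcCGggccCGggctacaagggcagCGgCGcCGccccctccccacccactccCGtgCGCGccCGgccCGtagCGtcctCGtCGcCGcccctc
Tet1: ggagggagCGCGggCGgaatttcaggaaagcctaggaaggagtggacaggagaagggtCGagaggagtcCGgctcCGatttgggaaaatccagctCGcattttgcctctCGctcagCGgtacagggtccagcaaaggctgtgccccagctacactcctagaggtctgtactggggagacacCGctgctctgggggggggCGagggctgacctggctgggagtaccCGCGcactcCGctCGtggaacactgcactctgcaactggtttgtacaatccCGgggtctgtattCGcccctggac
Tet2: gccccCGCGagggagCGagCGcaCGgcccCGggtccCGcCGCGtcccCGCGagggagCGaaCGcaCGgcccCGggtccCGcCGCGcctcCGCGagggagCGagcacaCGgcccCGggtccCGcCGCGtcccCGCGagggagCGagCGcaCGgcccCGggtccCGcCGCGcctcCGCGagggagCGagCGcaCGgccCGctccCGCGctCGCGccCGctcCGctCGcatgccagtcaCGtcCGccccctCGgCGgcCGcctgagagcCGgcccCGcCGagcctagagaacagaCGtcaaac

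These windows hold 46 CpGs at the first start of *Dnmt3a*, 18 at its internal start, 30 at *Dnmt3b*, 17 at *Tet1* and 57 at *Tet2*. Over 32851 promoters of 27025 genes the median was 7, with quartiles of 3 and 20. The count did not separate the genes by direction: the internal start of *Dnmt3a*, a gene that was lower with the constructs, lay between *Tet1* and *Dnmt3b*, which were higher. The windows of *Tet1*, *Tet2* and the first *Dnmt3a* start lie inside the GENCODE spans of these genes. The spans reach upstream to chr10:62908996, chr3:133545139 and chr12:3806007, and CpGs between these ends and the windows were not counted. The GC box GGGCGG, which itself contains a CpG, was counted on both strands and occurred 6 times at the first *Dnmt3a* start, 2 times at the internal one, 4 times at *Dnmt3b*, and 1 time each at *Tet1* and *Tet2*; 35.7% of all promoters held at least 1. The E2F motif TTTGGCGC, searched in the same way, was present in none of these 5 windows. It occurred in 0.514% of promoters and 1 time at *Dnmt1*, within chr9:20952574-20952873, reverse strand, the most downstream of the 3 starts of that gene. At *Zfp57*, 3 starts held between 4 and 9 CpGs and no GC box. A match describes letters only, and the gene counts do not separate starts or isoforms.

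The 10 genes are protein-coding and lie on 9 chromosomes of GRCm38. *Dnmt3a* spans chr12:3806007-3914443 and *Dnmt3b* chr2:153649450-153687730 on the forward strand, and *Tet1* spans chr10:62804570-62908996 and *Tet2* chr3:133463679-133545139 on the reverse strand. By GENCODE vM21, only the exons of *Dnmt3a* and *Tet2* overlap those of another gene on the opposite strand, and these partners were counted at no more than 0.0506 and 0.0238 CPM. *Dnmt3c*, the near-copy of *Dnmt3b* in rodents, was between 0 and 0.255 CPM, against 82.8 CPM or more for *Dnmt3b*. How reads shared by near-copies were counted is not given in the sources used here.

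Total counts ranged from 78751996 to 365719548 per library, and 3 counts, taken as the floor, were worth 0.00792 to 0.0395 CPM. Each member lay far above this floor, and the lowest count of any member in any library was 374, for *Tet1* with 4OHT alone. Libraries with 4OHT alone varied most: over 2742 genes of 100 CPM or more, their median coefficient of variation was 6.56%, against 2.02% in the PRMT5 (E444Q) group and 2.51% in the PRMT5 (WT) group. The targeted gene *Prmt5* was at 32, 30.8 and 28.2 CPM with 4OHT alone, 145, 147 and 146 CPM with PRMT5 (E444Q) and 1072, 1071 and 1085 CPM with PRMT5 (WT). The level of *Prmt5* RNA, which includes what remained with 4OHT alone, thus differed by 7.36-fold between the construct groups. The mutation and the level of this RNA cannot be told apart in any comparison of the constructs. For protein, the paper reports from its western blots that PRMT5 was restored by either construct. PRMT5 protein was not measured in these data. Germ cell markers were present in all libraries, with *Ddx4* at a mean of 298, 551 and 590.3 CPM in the order 4OHT alone, PRMT5 (E444Q) and PRMT5 (WT). *Ddx4* was among the 4 of 10 germ cell and SSC markers that rose with either construct, while 5 fell. Fibroblast markers were present too, as were macrophage markers, and their levels are given with the results. In bulk RNA, fewer cells of a type and less RNA per cell cannot be told apart.

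Levels of different genes are compared per kilobase of the longest coding transcript, and all other levels are CPM (counts relative to the library total) after scaling by the trimmed mean of M values (TMM). With 4OHT alone, *Trim28* was the highest of the 10 at 147.9 ± 10.8 CPM per kb (SD, n = 3), followed by *Dnmt1* at 81.1 ± 8.33 and *Uhrf1* at 78.8 ± 8.92 CPM per kb. The ranges of *Dnmt1* and *Uhrf1* overlapped, as did those of the next pair, *Dnmt3a* at 25.6 ± 1.2 and *Uhrf2* at 24.8 ± 1.08 CPM per kb. *Dnmt3b* came next at 20.5 ± 1.68 CPM per kb, below every library of that pair. The TET genes and *Zfp57* were lower: *Tet3* had 11.2 ± 0.804, *Zfp57* 6.27 ± 0.732, *Tet2* 1.47 ± 0.152 and *Tet1* 0.375 ± 0.0350 CPM per kb. The maintenance genes and *Trim28* therefore stood at the top of this order and the rarer TET genes at its foot.

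With the constructs, *Dnmt3b* rose past *Dnmt3a* and *Uhrf2* to the fourth place, at 40.3 ± 0.464 CPM per kb with PRMT5 (E444Q) and 41.8 ± 1.2 with PRMT5 (WT). *Dnmt3a* fell to the sixth place, at 17 ± 0.212 and 18.4 ± 1.05 CPM per kb. *Uhrf1* lay above *Dnmt1* in each of the 6 libraries with a construct, at 84.8 ± 1.72 against 76.5 ± 0.713 CPM per kb with PRMT5 (E444Q) and 91.8 ± 0.802 against 84.6 ± 0.674 with PRMT5 (WT). *Tet1* and *Tet2* became near neighbours, at 0.694 ± 0.0214 and 0.782 ± 0.0469 CPM per kb with PRMT5 (E444Q), without overlap, and at 0.724 ± 0.0438 and 0.723 ± 0.194 with PRMT5 (WT), with overlap. The order of neighbours depends on the transcript chosen: per kilobase of all exons joined, *Dnmt3b* (17.4) was already above *Dnmt3a* (14.9) with 4OHT alone, and *Uhrf1* (66.3) above *Dnmt1* (64.5). Changes between groups do not depend on the length.

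**Figure D1:**
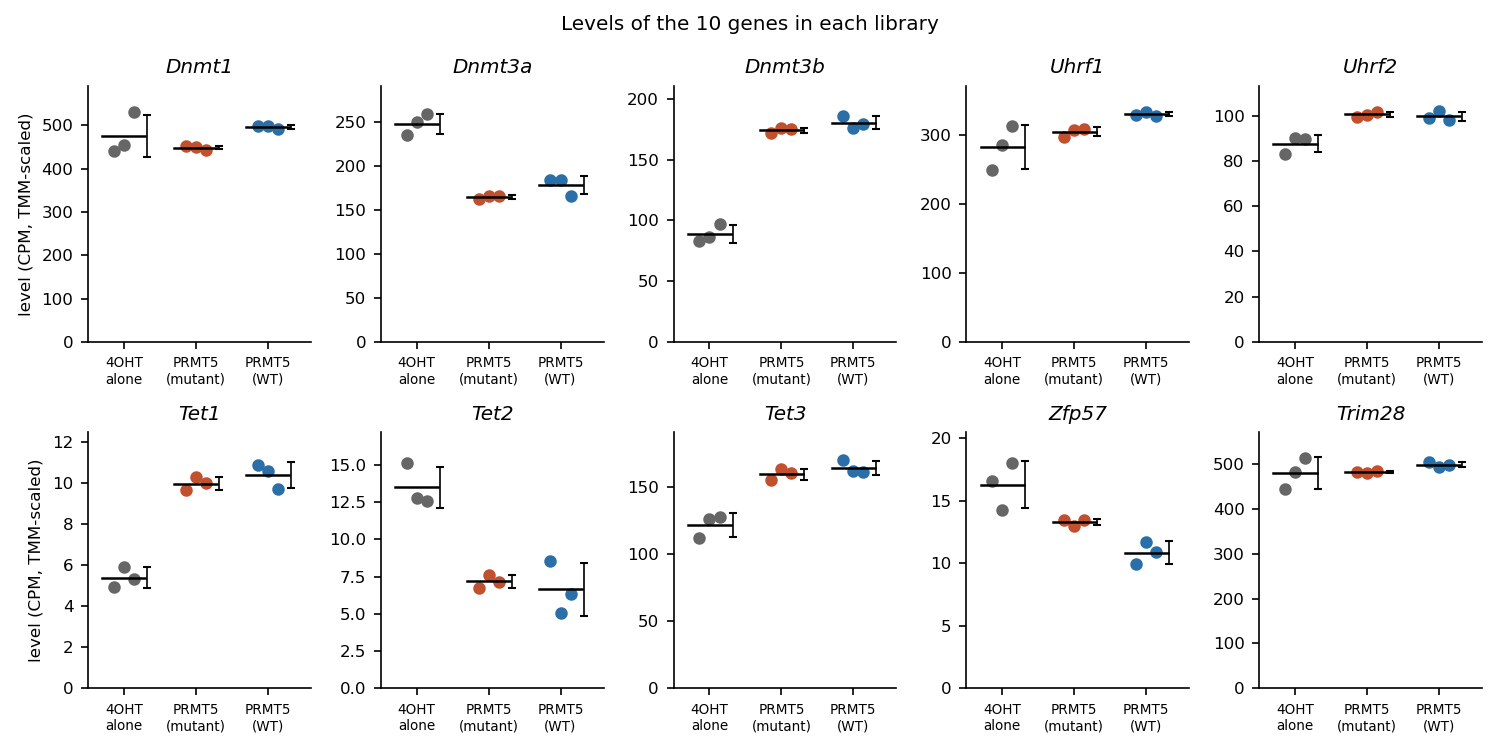
Levels of the 10 genes in each of the 9 libraries, in CPM after TMM scaling on axes that start at 0. Points are libraries (3 per group), horizontal lines the group means and bars the SD, and mutant stands for PRMT5 (E444Q), here and in the other plots. *Dnmt3b* and *Tet1* are higher, and *Dnmt3a* and *Tet2* lower, in every library with a construct than in every library with 4OHT alone.

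Between PRMT5 (E444Q) and PRMT5 (WT), the comparison that addresses the catalytic activity, none of the 10 genes passed an adjusted p of 0.05 in edgeR, against 3.17% of the 22452 genes tested (2.12% higher and 1.06% lower with PRMT5 (E444Q)). DESeq2 called 0 as well, and 2 members, *Dnmt1* and *Zfp57*, had an unadjusted p under 0.05 in edgeR, as did 12.4% of all genes. These edgeR tests and the intervals below come from the model of all 9 libraries, which includes the group whose libraries varied most. With only the 6 libraries of the constructs in the model, 3 members passed, *Dnmt1* and *Uhrf1* as lower and *Zfp57* as higher with PRMT5 (E444Q). That model called 1565 of all genes, against 712 in the model of all 9 libraries. The 95% intervals of single genes, not adjusted for their number, ran from -0.28 to 0.50 on the log2 scale over all members and stayed within a 1.5-fold difference for each of the 10. The libraries of the 2 constructs did not overlap for 5 members that were lower with PRMT5 (E444Q) and 1 that was higher, and 25.9% of all genes did not overlap (13% higher, 12.8% lower). The median log2 difference of the 10 genes was -0.05, and that of all genes 0.01.

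*Dnmt1*, the maintenance methyltransferase, was at 451, 451 and 444 CPM with PRMT5 (E444Q) and at 499, 499 and 492 CPM with PRMT5 (WT). The groups did not overlap, and the lower one was the mutant. The log2 fold change -0.15 ± 0.06 (SE), adjusted p = 0.323 (unadjusted p = 0.0316) did not pass in the model of all 9 libraries, and the interval was -0.28 to -0.01. With only the 6 libraries of the constructs in the model, the log2 fold change was -0.14 and the adjusted p 0.00307, and without 4OHT replicate 3 the adjusted p was 0.0127. *Uhrf1*, which brings DNMT1 to hemimethylated CpGs, was at 297, 307 and 308 CPM with PRMT5 (E444Q) and 328, 333 and 327 CPM with PRMT5 (WT). It also lay lower with the mutant in every library, with log2 fold change -0.11 ± 0.07 (SE), adjusted p = 0.540, and an adjusted p of 0.0257 in the model of 6 libraries. Summed markers of S phase and proliferation, 11 genes with which *Dnmt1* and *Uhrf1* share their use in replicating cells, ranged from 2332 to 2362 CPM with PRMT5 (E444Q) and from 2504 to 2518 CPM with PRMT5 (WT), and none of the 11 passed the test between the constructs. Their part in the values of *Dnmt1* and *Uhrf1* was not tested.

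*Zfp57*, a KRAB zinc finger gene, was the member with the largest difference between the constructs. Its levels were 13.5, 13 and 13.4 CPM with PRMT5 (E444Q) and 9.94, 11.7 and 10.9 CPM with PRMT5 (WT). All libraries with the mutant were the higher ones (log2 fold change 0.29 ± 0.10 (SE), adjusted p = 0.161, unadjusted p = 0.00921, interval 0.09 to 0.50), and the adjusted p was 0.0462 in the model of 6 libraries and 0.0893 in DESeq2. *Dnmt3a*, *Dnmt3b* and *Trim28* were lower with the mutant in every library, by log2 differences of -0.11, -0.05 and -0.05, with intervals of -0.23 to 0.00, -0.17 to 0.07 and -0.16 to 0.06. *Uhrf2* and the 3 TET genes overlapped between the constructs. Their log2 differences were 0.01 for *Uhrf2*, -0.06 for *Tet1*, 0.12 for *Tet2* and -0.04 for *Tet3*. *Tet2* had the widest interval, -0.22 to 0.45, and its sign turned to -0.04 without PRMT5 (WT) replicate 2.

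The marker lists also differed between the constructs. The 8 fibroblast markers were all higher with PRMT5 (E444Q), with summed levels of 2983 to 3007 CPM against 2250 to 2322 CPM with PRMT5 (WT), and all 7 macrophage markers were lower, at 1098 to 1131 CPM against 2163 to 2282 CPM. Of the 10 germ cell and SSC markers none passed the test, at summed levels of 1877 to 1959 CPM against 2078 to 2109 CPM. Of all genes, 2.12% passed as higher and 1.06% as lower with PRMT5 (E444Q). The part of other cells in the members' values was not tested.

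**Figure D2:**
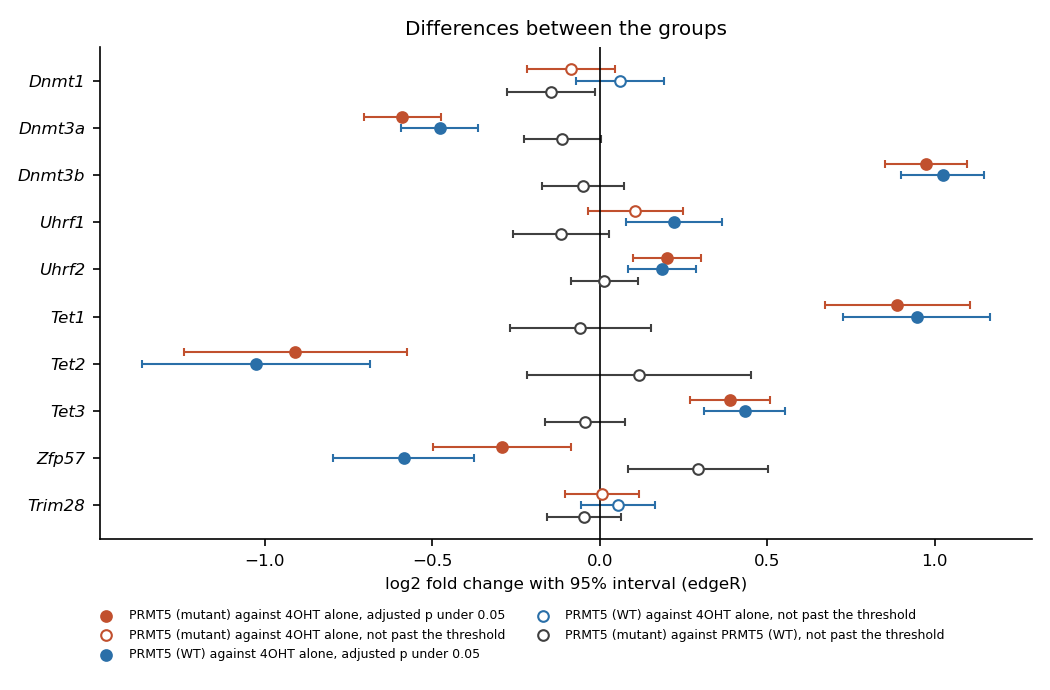
Log2 fold changes of the 10 genes (horizontal axis) with the 95% interval of each single gene, from edgeR, for PRMT5 (E444Q) against 4OHT alone, PRMT5 (WT) against 4OHT alone and PRMT5 (E444Q) against PRMT5 (WT). Filled points passed an adjusted p of 0.05 over all genes, which none did between the constructs, and the intervals of the constructs against each other lie between -0.28 and 0.50.

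Against 4OHT alone, 7 of the 10 genes passed the test with PRMT5 (E444Q), 4 higher and 3 lower, and 8 with PRMT5 (WT), 5 higher and 3 lower. In the same tests, 56% of all genes passed with PRMT5 (E444Q) (29.5% higher, 26.5% lower) and 57.8% with PRMT5 (WT) (29.9% higher, 27.9% lower). Since most genes passed, these counts do not set the members apart. *Dnmt3b*, *Uhrf2*, *Tet1* and *Tet3* rose and *Dnmt3a*, *Tet2* and *Zfp57* fell with each construct, *Uhrf1* passed with PRMT5 (WT) alone, and *Dnmt1* and *Trim28* passed with neither. The values with the 2 constructs share the libraries with 4OHT alone and are therefore given side by side. Groups did not overlap for the same 7 genes with PRMT5 (E444Q) (63.9% of all genes, 33.8% higher and 30.1% lower) and the same 8 with PRMT5 (WT) (61.6% of all genes, 31.5% higher and 30.1% lower).

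*Dnmt3b*, a de novo methyltransferase, was at 82.8, 86.6 and 96.8 CPM with 4OHT alone. It was at 172, 176 and 175 CPM with PRMT5 (E444Q) and 186, 176 and 179 CPM with PRMT5 (WT). The libraries with a construct were well above all of those with 4OHT alone, a 1.96-fold difference with PRMT5 (E444Q) (log2 fold change 0.97 ± 0.06 (SE), adjusted p = 5.17e-09) and 2.03-fold with PRMT5 (WT) (log2 fold change 1.02 ± 0.06 (SE), adjusted p = 2.71e-09). Of all genes, 26.3% and 27.2% changed by more in the same comparisons.

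*Dnmt3a*, the other de novo enzyme and the one that sets most paternal imprints, went the other way. It was at 236, 250 and 259 CPM with 4OHT alone, 163, 166 and 166 CPM with PRMT5 (E444Q) and 185, 184 and 167 CPM with PRMT5 (WT). Every library with a construct lay below every library with 4OHT alone, on average by 1.51-fold with PRMT5 (E444Q) (log2 fold change -0.59 ± 0.05 (SE), adjusted p = 3.85e-07) and 1.39-fold with PRMT5 (WT) (log2 fold change -0.48 ± 0.05 (SE), adjusted p = 2.92e-06). *Dnmt3l*, the catalytically inactive partner of both enzymes, was chosen after its values were seen. It was at 11.4 ± 0.984 CPM (SD, n = 3) with 4OHT alone, 18.8 ± 0.832 for PRMT5 (E444Q) and 18.5 ± 1.96 for PRMT5 (WT), and rose by log2 fold changes of 0.73 and 0.70 (adjusted p = 1.29e-05 and 1.91e-05).

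The balance of the 2 de novo enzymes shifted towards *Dnmt3b*. Per kilobase of the longest coding transcript, *Dnmt3b* made up 44.5% ± 1.01 (SD, n = 3) of the sum of *Dnmt3a* and *Dnmt3b* with 4OHT alone, 70.3% ± 0.0480 for PRMT5 (E444Q) and 69.4% ± 1.21 for PRMT5 (WT). The ratio of *Dnmt3a* to *Dnmt3b* was 1.27, 1.29 and 1.19 in the libraries with 4OHT alone. It was 0.422, 0.422 and 0.423 in the PRMT5 (E444Q) group and 0.442, 0.465 and 0.415 in the PRMT5 (WT) group. The construct libraries lay far from those with 4OHT alone and close to each other. Which of the 2 genes is higher with 4OHT alone depends on the length used: per kilobase of joined exons *Dnmt3b* was above *Dnmt3a* in all 3 groups, at 17.4 against 14.9, 34.1 against 9.91 and 35.3 against 10.7 CPM per kb in the order 4OHT alone, PRMT5 (E444Q) and PRMT5 (WT). The summed level of the 2 genes was 46.2 ± 2.82 CPM per kb with 4OHT alone, 57.4 ± 0.673 for PRMT5 (E444Q) and 60.2 ± 1.80 for PRMT5 (WT). *Dnmt1* remained the largest part of the 3 methyltransferases, with 63.7% ± 1.06, 57.1% ± 0.431 and 58.4% ± 0.602 in the same order.

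*Dnmt1* itself was at 442, 455 and 532 CPM with 4OHT alone, a spread that contained the values with either construct. The log2 fold changes were -0.09 ± 0.06 with PRMT5 (E444Q) and 0.06 ± 0.06 with PRMT5 (WT), with adjusted p of 0.258 and 0.418 and intervals of -0.22 to 0.05 and -0.07 to 0.19. Both values rested on single libraries with 4OHT alone. Without 4OHT replicate 1, *Dnmt1* was lower with PRMT5 (E444Q) (log2 fold change -0.15, adjusted p = 0.0436) and without 4OHT replicate 3 it was higher with PRMT5 (WT) (0.14, adjusted p = 0.00271). *Uhrf1* was at 249, 285 and 313 CPM with 4OHT alone, and all 3 libraries with PRMT5 (WT) were above these (log2 fold change 0.22 ± 0.07 (SE), adjusted p = 0.0110). Without 4OHT replicate 1 this log2 fold change was 0.12 (adjusted p = 0.0464). With PRMT5 (E444Q) the groups overlapped (log2 fold change 0.11 ± 0.07 (SE), adjusted p = 0.193), and single libraries with 4OHT alone moved the value: it was 0.18 without 4OHT replicate 3 (adjusted p = 0.00782) and 0.01 without 4OHT replicate 1 (adjusted p = 0.871). The difference between the constructs for *Uhrf1* is the one given above, which did not pass.

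*Uhrf2*, the paralogue of *Uhrf1*, showed a small rise. It was at 83.3, 90.1 and 89.6 CPM with 4OHT alone, 99.6, 101 and 102 CPM with PRMT5 (E444Q) and 99.2, 102 and 98.1 CPM with PRMT5 (WT). Every library with a construct was above every one with 4OHT alone, on average by 1.15-fold with PRMT5 (E444Q) (adjusted p = 0.00232) and 1.14-fold with PRMT5 (WT) (adjusted p = 0.00382). Of all genes, 77.6% and 80.8% changed by more. The ratio of *Uhrf1* to *Uhrf2* per kilobase was 3.17 ± 0.251 with 4OHT alone, 2.98 ± 0.0350 for PRMT5 (E444Q) and 3.26 ± 0.0376 for PRMT5 (WT).

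The summed S phase and proliferation markers were at 1710 to 1884 CPM with 4OHT alone, below the ranges with either construct given above. With PRMT5 (E444Q) 8 of these 11 markers rose and 1 fell, and with PRMT5 (WT) 10 rose and 1 fell. Of all genes, 29.5% and 29.9% were higher and 26.5% and 27.9% lower in the same order. *Pcna*, the clamp of the replication fork, was at 73.3 ± 3.74, 158 ± 4.08 and 165 ± 2.99 CPM in the order 4OHT alone, PRMT5 (E444Q) and PRMT5 (WT), and *Mki67*, a proliferation marker, at 96.9 ± 11.3, 161 ± 3.95 and 171 ± 4.33 CPM. Over the 11 markers the log2 fold changes ran from -0.26 to 1.11 with PRMT5 (E444Q) and from -0.25 to 1.17 for PRMT5 (WT), with medians of 0.34 and 0.43.

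Among the erasers, *Tet1* rose and *Tet2* fell. *Tet1* was at 4.93, 5.93 and 5.32 CPM with 4OHT alone, 9.66, 10.3 and 9.99 CPM with PRMT5 (E444Q) and 10.9, 10.6 and 9.69 CPM with PRMT5 (WT). The ranges were far apart, with a 1.85-fold difference with PRMT5 (E444Q) (log2 fold change 0.89 ± 0.10 (SE), adjusted p = 3.75e-06) and 1.93-fold with PRMT5 (WT) (log2 fold change 0.95 ± 0.10 (SE), adjusted p = 2.01e-06). *Tet2*, which lacks the CXXC domain with which TET1 and TET3 bind DNA, was at 15.1, 12.8 and 12.6 CPM with 4OHT alone, 6.76, 7.62 and 7.16 CPM with PRMT5 (E444Q) and 8.57, 5.05 and 6.30 CPM with PRMT5 (WT). It had the widest relative spread of the members within PRMT5 (WT), yet each library with a construct was below those with 4OHT alone. The log2 fold changes were -0.91 ± 0.15 with PRMT5 (E444Q) and -1.03 ± 0.16 with PRMT5 (WT), with adjusted p of 0.000176 and 6.55e-05.

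*Tet3*, the most abundant TET gene, rose by less. It was at 112, 126 and 128 CPM with 4OHT alone, 155, 164 and 161 CPM with PRMT5 (E444Q) and 171, 162 and 161 CPM with PRMT5 (WT). Each library with a construct was above those with 4OHT alone, on average by 1.31-fold (adjusted p = 3.59e-05) and 1.35-fold (adjusted p = 1.27e-05). Per kilobase, *Tet3* made up 85.8% ± 1.77 of the 3 TET genes with 4OHT alone, 90.9% ± 0.178 for PRMT5 (E444Q) and 91.3% ± 0.928 for PRMT5 (WT). The share of *Tet2* was 11.3% ± 1.81, 4.85% ± 0.161 and 4.35% ± 0.992 in the same order, and that of *Tet1* 2.88% ± 0.181, 4.30% ± 0.0190 and 4.37% ± 0.198. The summed TET level was 13 ± 0.677 CPM per kb with 4OHT alone, 16.1 ± 0.444 for PRMT5 (E444Q) and 16.6 ± 0.683 for PRMT5 (WT). Both among the de novo enzymes and among the TET genes, members thus moved in opposite directions while their sum was higher with either construct.

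**Figure D3:**
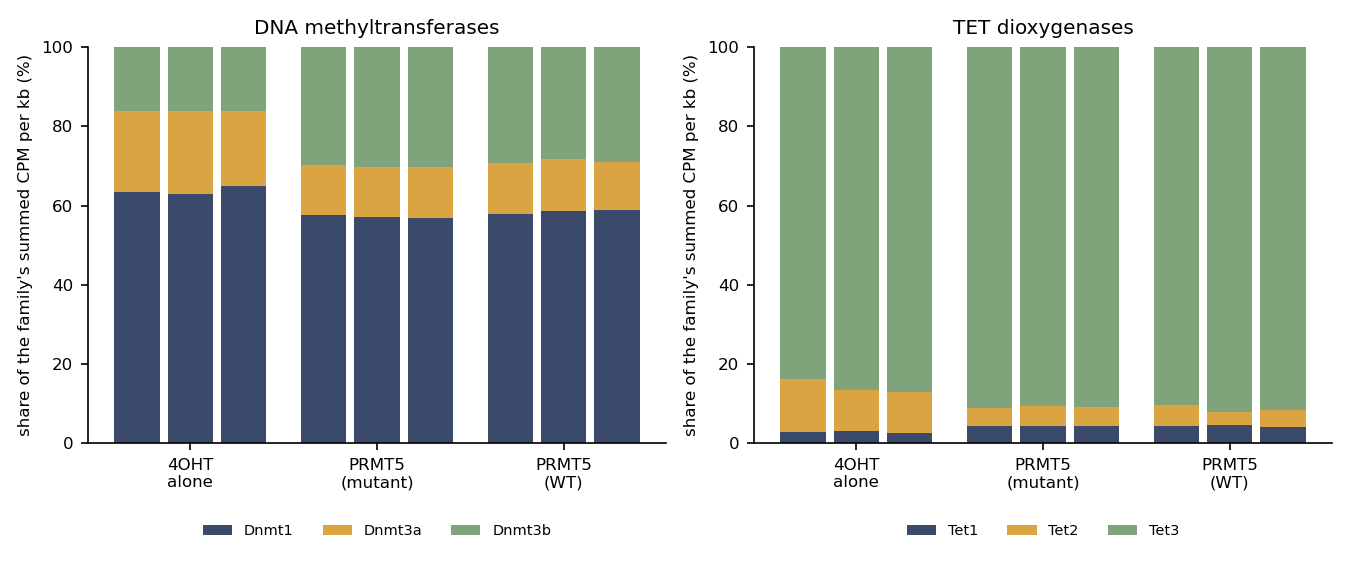
Share of each gene in the summed level of its family, in percent of CPM per kilobase of the longest coding transcript, for the 3 methyltransferases (left) and the 3 TET dioxygenases (right), with 1 bar per library. With either construct the share of *Dnmt3b* is larger and those of *Dnmt3a* and *Tet2* are smaller than with 4OHT alone.

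The imprint-protecting pair behaved unequally. *Zfp57* was at 16.6, 14.2 and 18 CPM with 4OHT alone, above the values with PRMT5 (E444Q), which in turn were above those with PRMT5 (WT). It fell by 0.29 on the log2 scale with PRMT5 (E444Q) (SE 0.10, adjusted p = 0.0188) and by 0.58 with PRMT5 (WT) (SE 0.10, adjusted p = 0.000138). The call with the mutant was lost without 4OHT replicate 3 (adjusted p = 0.0768) and without PRMT5 (E444Q) replicate 2 (adjusted p = 0.0551). *Trim28*, the corepressor that ZFP57 and other KRAB zinc finger proteins recruit, was at 444, 483 and 513 CPM with 4OHT alone, 482, 481 and 484 CPM with PRMT5 (E444Q) and 504, 493 and 498 CPM with PRMT5 (WT). The libraries with a construct fell within the range with 4OHT alone, with log2 fold changes of 0.01 ± 0.05 and 0.05 ± 0.05 and intervals of -0.10 to 0.12 and -0.06 to 0.17. Over the 10 genes, the median log2 fold change against 4OHT alone was 0.06 with PRMT5 (E444Q) and 0.12 with PRMT5 (WT), and over all genes 0.04 and 0.02.

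The cell makeup, as far as marker lists show it, also differed from 4OHT alone. Summed fibroblast markers were at 4173 to 4860 CPM with 4OHT alone, above both ranges with the constructs, and summed macrophage markers at 167.7 to 183.6 CPM, below both. Of the fibroblast markers 7 of 8 fell and 1 rose with PRMT5 (E444Q) and all 8 fell with PRMT5 (WT). The 7 macrophage markers rose with each construct. These counts and those that follow are to be read against all genes. With PRMT5 (E444Q) 29.5% of these were higher and 26.5% lower, and with PRMT5 (WT) 29.9% and 27.9%. The 5 Sertoli cell markers summed to 21.9 to 25.7 CPM with 4OHT alone, 16.3 to 17.8 with PRMT5 (E444Q) and 14.5 to 17.9 with PRMT5 (WT). In each group 2 of the 5 had a mean under 1 CPM, and *Amh*, the lowest of them, was at no more than 0.171 CPM. With PRMT5 (E444Q) 3 of the 5 rose and 1 fell, and in the PRMT5 (WT) group 3 rose and 2 fell, so that the lower sum followed 1 gene, *Sox9*, at 16.2 ± 1.38, 6.81 ± 0.473 and 6.05 ± 0.514 CPM in the order 4OHT alone, PRMT5 (E444Q) and PRMT5 (WT). The 5 Leydig cell markers summed to no more than 7.12 CPM in any library, with *Hsd3b1* at 0 in all; 2 of the 5 were tested, and 1 of these rose with each construct. Of 10 germ cell and SSC markers, 4 rose and 5 fell with either construct, at summed levels of 1728 to 1817 CPM with 4OHT alone, and the list's median log2 fold change was -0.37 with PRMT5 (E444Q) and -0.33 for PRMT5 (WT). The SSC genes *Etv5*, a transcription factor, and *Gfra1*, the GDNF receptor, were among those that fell, *Etv5* from 126 ± 6.92 CPM to 13.8 ± 0.345 and 12.1 ± 1.17 and *Gfra1* from 120.4 ± 4.09 CPM to 27.6 ± 0.786 and 28.2 ± 0.717. Among those that rose, *Dazl*, a germ cell RNA-binding protein gene, was at 381 ± 25.9, 687 ± 24.5 and 791 ± 30.2 CPM in the same order of groups. *Lyz2*, a macrophage lysozyme gene, was at 151 ± 6.59, 944 ± 16.3 and 1878 ± 53 CPM. The part of these shifts in the members' differences from 4OHT alone was not tested.

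**Figure D4:**
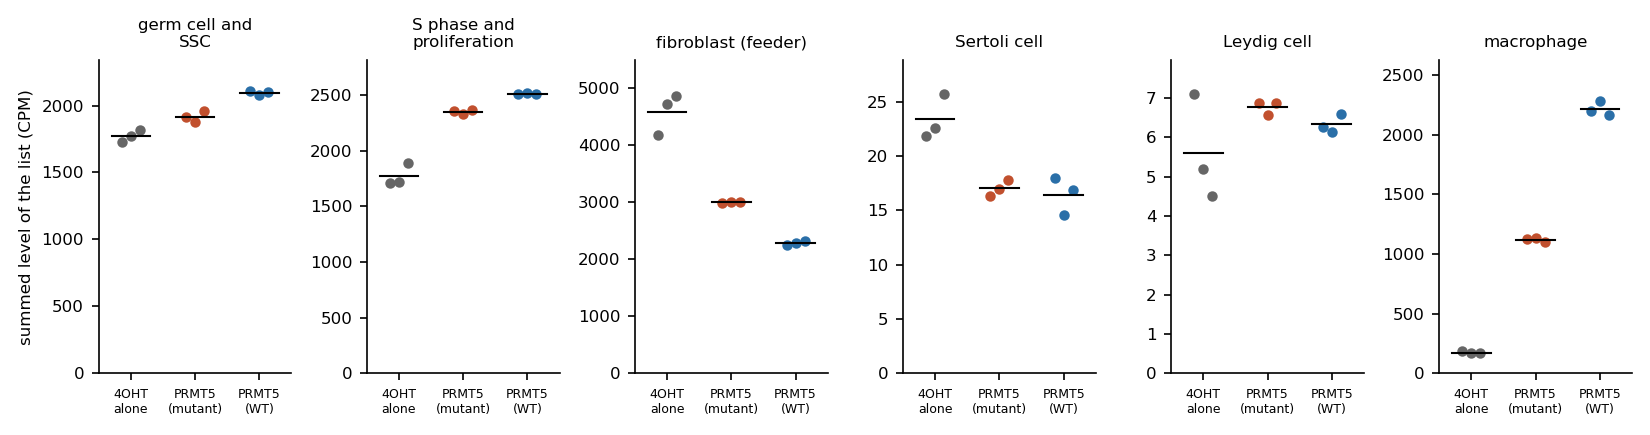
Summed levels (CPM) of 6 lists of marker genes in each library, on separate axes that start at 0. Points are libraries (3 per group) and lines are group means. Macrophage markers rise from at most 183.6 CPM with 4OHT alone to at least 2163 CPM with PRMT5 (WT), while summed fibroblast markers fall.

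The wider pathway was described by 59 other genes in 6 lists. Against 4OHT alone, 33 rose and 17 fell with PRMT5 (E444Q), against 56% of all genes (29.5% higher, 26.5% lower). With PRMT5 (WT) 34 rose and 18 fell, against 57.8% of all genes (29.9% higher, 27.9% lower). The counts of single lists, which were chosen with earlier results of these data known, are to be read against the same shares. Between the constructs, 12 of the 59 had an unadjusted p under 0.05 in edgeR, a larger share than the 12.4% of all genes. DESeq2 called 4 at an adjusted p of 0.05. In edgeR, 1 of the 59 passed, against 3.17% of all genes. This was *Apobec1*, a cytidine deaminase that edits mRNA and has been proposed to act on methylated cytosine. It was at 10.6, 11.6 and 10.7 CPM with 4OHT alone, 7.76, 7.35 and 8.80 CPM with PRMT5 (E444Q) and 14.1, 15.5 and 17.7 CPM with PRMT5 (WT). The mutant libraries were the lowest and the PRMT5 (WT) libraries the highest (log2 fold change -0.98 ± 0.10 (SE), adjusted p = 9.93e-05 between the constructs).

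The genes of piRNA-directed methylation, which guides DNMT3 enzymes to transposons in fetal male germ cells, all rose. They were 6 of 6 with each construct (median log2 fold change 0.90 and 0.97), against 29.5% and 29.9% of all genes higher. *Tex15*, a nuclear effector of this pathway, was at 132 ± 10.3 CPM with 4OHT alone, 428 ± 6.42 for PRMT5 (E444Q) and 371 ± 11.4 for PRMT5 (WT), log2 fold changes of 1.70 and 1.49. *Mael*, a piRNA pathway gene of the germ granules, rose on the log2 scale by 1.13 and 1.15. The cofactors of maintenance and de novo methylation moved in the same direction, 9 of 12 higher with PRMT5 (E444Q) and 11 of 12 with PRMT5 (WT), and none lower. *Cdca7* and *Hells*, which form a nucleosome remodeller needed for CpG methylation, had log2 fold changes of 0.86 and 0.76 with PRMT5 (E444Q) and 0.97 and 0.87 in the PRMT5 (WT) group.

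The readers of methylated CpG mostly fell, 6 of 7 with each construct, against 26.5% and 27.9% of all genes lower. *Zbtb4*, a zinc finger protein that binds methylated CpG, fell from 90.1 ± 2.64 CPM to 26 ± 0.421 with PRMT5 (E444Q) and 23.3 ± 2.53 with PRMT5 (WT). *Zbtb33* (Kaiso) was the 1 that rose, by log2 fold changes of 0.18 and 0.27. The demethylation and base excision repair list was split, 6 higher and 7 lower of 15 with each construct. *Ogt*, a partner of the TET enzymes, rose by 0.74 and 0.59 and *Tdg*, the glycosylase that removes oxidised methylcytosine, by 0.46 and 0.40. *Cxxc4*, which binds unmethylated CpG and interacts with TET2, had log2 fold changes of -0.93 and -0.91, and *Gadd45a*, a stress-induced gene linked to active demethylation, -0.72 and -0.94.

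The TRIM28 and KRAB zinc finger list held 5 genes that rose with each construct, 3 that fell with PRMT5 (E444Q) and 4 that fell with PRMT5 (WT), of 9. *Zfp809*, which directs TRIM28 to retroviral DNA, was at 18.8 ± 1.88 CPM with 4OHT alone, 8.40 ± 0.607 for PRMT5 (E444Q) and 8.25 ± 0.510 for PRMT5 (WT). The heterochromatin protein 1 genes parted, with *Cbx3* higher (0.37 and 0.51) and *Cbx5* lower (-0.36 and -0.34), and *Smarcad1*, a remodeller that binds TRIM28, was higher (0.33 and 0.37). Of 10 genes for the supply and use of the methyl donor S-adenosylmethionine, 6 rose with PRMT5 (E444Q) and 5 with PRMT5 (WT), and 1 fell with each. *Ahcy*, which clears the product of methylation, rose by 0.75 and 0.80, and *Amd1*, which does not supply the donor but draws it off towards polyamines, by 0.85 and 0.88. For the pathway genes named since the 6 lists were introduced, the edgeR adjusted p for the differences from 4OHT alone was at most 0.00612. *Dnmt3c*, a listed gene named further above, passed with neither construct (edgeR adjusted p = 0.290 with PRMT5 (E444Q) and 0.154 with PRMT5 (WT)).

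**Figure D5:**
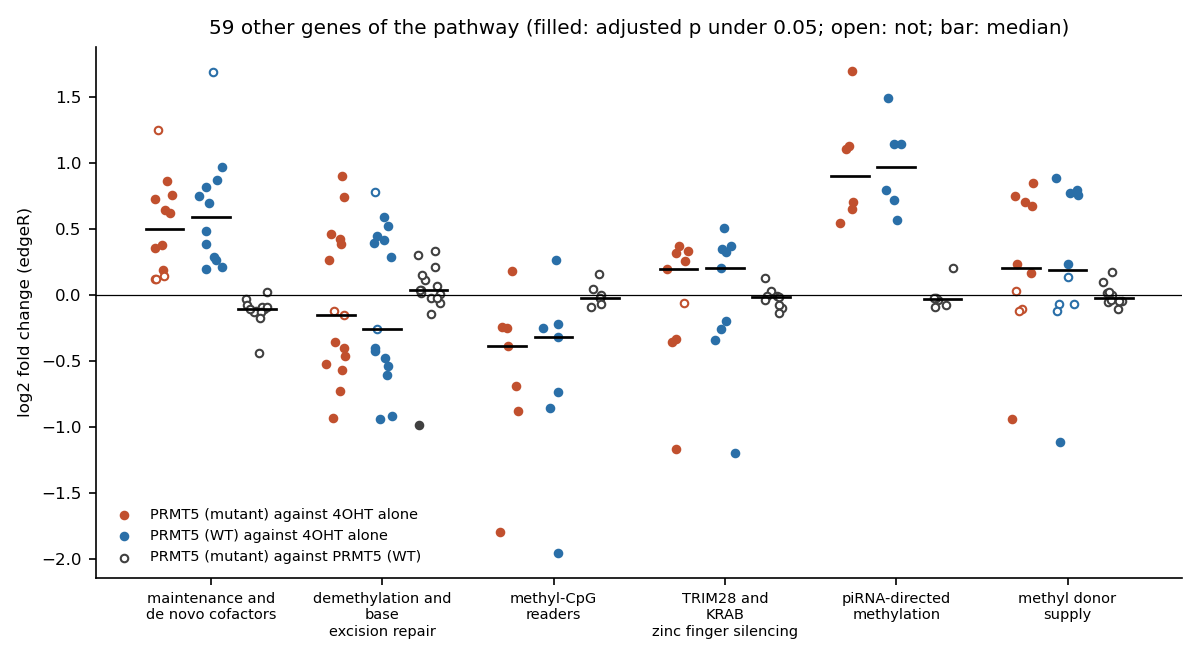
Log2 fold changes (edgeR, vertical axis) of the 59 other pathway genes in 6 lists, for PRMT5 (E444Q) and PRMT5 (WT) against 4OHT alone and for the constructs against each other. Points are genes, filled where the adjusted p was under 0.05, and bars are list medians. All 6 piRNA genes lie above 0 with each construct and 6 of 7 readers below it, while between the constructs only *Apobec1* is filled.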

How the data were processed

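mRNA was sequenced from 9 libraries of cultured mouse SSCs, 3 per group, and groups were taken from the sample labels. Per the study's methods, the authors used BBmap 39.01 and Trimmomatic 0.39 to trim paired reads of 150 bp, HISAT2 2.2.1 to align them (GRCm38) and StringTie 2.2.1 for quantification. The deposited values are whole-number counts for each gene and are not normalized. How StringTie output became whole numbers, the strand setting and the treatment of reads with several alignments are not given in the sources used here. Values of 4 counts were 1.35 to 1.84 times as frequent as their neighbours, so the number of read pairs behind a count is uncertain, and depth floors cover counting error only. Total counts ranged from 78751996 to 365719548.

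Counts were tested with edgeR 4.0.16 in R 4.3.3 (filterByExpr by group with a minimum count of 10 and a minimum total of 15, TMM, quasi-likelihood test on all 9 libraries with the group as the only factor, common biological coefficient of variation 0.155). P-values were adjusted by Benjamini-Hochberg over 22452 genes, at a threshold of 0.05. The steps were tested on simulated counts in which few genes changed, in the PRMT5 (E444Q) group only, with less spread than here. That test does not cover comparisons in which most genes passed. A difference names the first group minus the second. Alternatives were RLE and upper-quartile scaling, no filter, DESeq2 1.42.0, a replicate block, a 1.5-fold threshold, counts divided by 4, the 6 libraries compared, and leaving out each library. Positions and lengths came from GENCODE vM21 (53706 of 53801 identifiers matched), and promoters from RefSeq, GRCm38.p6 (all 10 members matched). Figures were drawn with matplotlib 3.10.9.

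Members and lists were chosen with earlier results of these data known. The genes named are the 10 members, *Prmt5*, every pathway gene past the threshold between the constructs and, per list, the 2 highest and 2 lowest log2 fold changes against 4OHT alone among genes that passed and had a mean of 1 CPM or more. *Ddx4*, *Dazl*, *Pcna*, *Mki67* and *Lyz2* are named from the marker lists, and *Dnmt3l*, *Dnmt3c*, *Amh*, *Hsd3b1*, *Etv5*, *Gfra1* and *Sox9* were added after their values were seen. Of the genes this rule names, 2 are not reported here.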

Additional observations from a re-analysis of the deposited data

Results flagged for a closer look

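*Apobec1* went opposite ways with the constructs and was the only one of the 59 pathway genes that passed the test between them. Against 4OHT alone it was lower with PRMT5 (E444Q) (log2 fold change -0.46, edgeR adjusted p = 0.00177) and higher with PRMT5 (WT) (0.52, adjusted p = 0.000621), in all 3 libraries of each group. The difference itself, PRMT5 (E444Q) minus PRMT5 (WT), was -0.98 ± 0.10 on the log2 scale (adjusted p = 9.93e-05). It lay between -1.06 and -0.89 under the 17 alternatives, which for this gene were chosen after seeing the data, and lost the call only under the 1.5-fold threshold. Summed macrophage markers were also lower with PRMT5 (E444Q), at 1098 to 1131 CPM against 2163 to 2282 CPM with PRMT5 (WT). The means of *Apobec1* in these groups were 7.97 and 15.7 CPM. With 4OHT alone, the summed macrophage markers were at 167.7 to 183.6 CPM and *Apobec1* at 11 ± 0.557 CPM. The part of macrophage RNA in the result was not tested.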

How the results depend on the processing

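Against 4OHT alone, *Dnmt3b*, *Tet1* and *Tet2* passed with the same sign in all 17 alternatives with each construct, and *Dnmt3a*, *Tet3* and *Uhrf2* in all but the 1.5-fold threshold. Over single genes, 576 values kept their side and sign, 16 lost a call, 10 gained one and 10 changed sign. Sign changes concerned uncalled values. *Trim28* with PRMT5 (E444Q) was -0.0227 with RLE scaling, -0.0227 in DESeq2 and -0.0236 with counts divided by 4, and ranged from -0.0595 to 0.0521 when single libraries were left out. With PRMT5 (WT), the same ranges were -0.0152 to 0.0953 for *Trim28* and -0.0063 to 0.1386 for *Dnmt1*, and between the constructs -0.0427 to 0.3347 for *Tet2*. *Zfp57* with PRMT5 (E444Q) also lost its call under upper-quartile scaling (adjusted p = 0.0672), without the filter (0.0788) and under the 1.5-fold threshold. Upper-quartile scaling, which moved the median of all genes by at most 0.0787, added calls for *Uhrf1* with PRMT5 (E444Q) and for *Dnmt1* and *Trim28* with PRMT5 (WT).

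The 1.5-fold threshold left 3 members, 17 pathway genes and 5059 genes with PRMT5 (E444Q) against 4OHT alone, 3, 20 and 5645 with PRMT5 (WT), and 0 pathway genes and 34 genes between the constructs. Between the constructs the number of genes called depended most on the setting: 712 as reported, 1140 in DESeq2, 1565 in the model of 6 libraries, and 400 to 1099 without single libraries, the highest without 4OHT replicate 3 and the lowest without PRMT5 (E444Q) replicate 2. Members called were 3 in the model of 6 libraries and 0 to 1 without single libraries. Pathway genes called were 2 without the filter, 4 in DESeq2, 3 with counts divided by 4, 9 in the model of 6 libraries and 1 to 3 without single libraries. The cause of these shifts was not tested. Same-numbered libraries did not deviate together (correlations from -0.0195 to 0.0443), so numbers were not taken to pair them. A replicate block gave 7, 8 and 0 members called with PRMT5 (E444Q), with PRMT5 (WT) and between the constructs, 12443, 12807 and 674 genes, and changed no member's call.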
